A study of Mus musculus and Homo sapiens with 28 samples.

Results

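The genes described here are 40 genes of homologous recombination and the Fanconi anaemia pathway, with FANCD2, BLM and XRCC2 as their markers. They were taken from a fixed list of symbols, matched by symbol among the 56269 rows of the human table and, through Ensembl identifiers, among the 46078 rows of the mouse table. All 40 were found in both tables and all 40 could be tested in both. The members fall into 8 roles: 7 genes of end resection, 5 of the BRCA mediator group, 5 of the XRCC2 and XRCC3 group (with RAD51B, RAD51C and RAD51D), 3 of annealing and remodelling, 4 of the dissolution complex, 4 of junction resolution, 9 of the Fanconi core with its E2 enzyme, and 3 of the Fanconi effector step.

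RNA was sequenced from 28 libraries in 2 systems. The parental 786-O line, derived from human clear cell kidney cancer, carries the genotype label WT in all its libraries. It was left untreated (2 libraries) or exposed for 48 h to 25 nM of a compound that inhibits CHK1 (2 libraries). CHK1 is the kinase that ATR activates. The labels and the design text name the inhibitor LY2606368, the treatment protocol names LY2603618, and which was given is not settled here. The second system was mouse kidney cancer cells, Renca, implanted under the skin of the back and labelled WT or SETD2 KD (a knockdown of the histone methyltransferase SETD2). Tumour-bearing animals had no treatment or oral VE822, which inhibits ATR, at 60 mg/kg on 5 days per week. A starting tumour volume of 100 mm3 is given for all Renca groups. This gave 7 libraries labelled WT untreated, 6 WT VE822, 6 SETD2 KD untreated and 5 SETD2 KD VE822. The sources used here do not give the strain, age or sex of the mice, how the knockdown was made, or whether it is 1 clone. The design text speaks of 2 separate experiments with 786-O but does not tie libraries to them, and nothing states that each Renca library is a separate animal, so p-values measure the spread between libraries only.

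Homologous recombination repairs double-strand breaks and broken replication forks by copying an undamaged sister chromatid. Nucleases first resect the break to single-stranded DNA, mediators prepare it for strand invasion, and the joined DNA molecules are then dissolved or cut apart. The Fanconi anaemia pathway acts when a fork meets an interstrand crosslink: a core ubiquitin ligase modifies the FANCD2 and FANCI pair, which directs incision and hands the break to recombination. Many of these genes are transcribed mostly in S and G2 phase, and ATR and CHK1 signal from the stalled forks on which their products work.

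The human libraries held 20834400 to 23956007 counts, recovered from the deposited values, and 786-O showed its renal markers (PAX8 at 5398 to 8320 counts). Of the T cell list, CD3E, CD8A and LCK had a count of 0 in all 4 libraries. The other genes of that list had at most 8 counts in any library. The mouse depth is unknown, because regularised log values (rlog, on a log2 scale) do not keep it. Setd2 went against the genotype label: its rlog ran from 10.74 to 10.91 in libraries labelled WT untreated and from 10.70 to 10.88 in those labelled SETD2 KD untreated, but from 9.42 to 10.28 over the 11 VE822 libraries. Every mouse result is therefore a difference between libraries as labelled. In Renca tumours Pax8 had group means of 11.01 to 11.43 rlog.

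The proximal sequence of 3 mouse members is shown as examples. Mre11a fell under VE822 in both labels, Brip1 fell in the WT label, and Rad54l followed the mitotic genes from library to library. All 3 hold CCAAT. So do Slx4, which fell in the WT label, and Brca1, Fanca, Fancb and Fancm, which followed the mitotic genes. Some other members that moved do not share it. Brca2 fell in both labels, Fanci fell in the WT label, and Eme1 and Gen1 followed the mitotic genes. These had no CCAAT from 250 bases before to 50 after the RefSeq start. For Fanci, Eme1 and Slx4 that start lay 409, 221 and 2092 bases further into the gene than the GENCODE gene start. Their windows therefore miss some or all of the bases before the GENCODE start. Each stretch is the 250 bases before the RefSeq start on GRCm38.p6, written 5′ to 3′ along the gene, and the capitals mark CCAAT or its reverse complement ATTGG.
Mre11a (plus strand, chr9:14784404-14784653): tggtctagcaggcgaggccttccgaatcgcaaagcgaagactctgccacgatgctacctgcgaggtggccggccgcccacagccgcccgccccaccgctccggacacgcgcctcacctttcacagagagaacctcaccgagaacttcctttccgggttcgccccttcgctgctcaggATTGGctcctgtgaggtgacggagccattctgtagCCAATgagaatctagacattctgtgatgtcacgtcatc
Brip1 (minus strand, chr11:86201194-86201443): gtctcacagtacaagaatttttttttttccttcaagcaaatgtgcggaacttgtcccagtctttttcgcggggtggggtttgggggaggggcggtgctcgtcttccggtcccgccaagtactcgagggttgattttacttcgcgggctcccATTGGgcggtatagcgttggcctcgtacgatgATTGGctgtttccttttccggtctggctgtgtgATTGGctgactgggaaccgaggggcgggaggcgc
Rad54l (minus strand, chr4:116123691-116123940): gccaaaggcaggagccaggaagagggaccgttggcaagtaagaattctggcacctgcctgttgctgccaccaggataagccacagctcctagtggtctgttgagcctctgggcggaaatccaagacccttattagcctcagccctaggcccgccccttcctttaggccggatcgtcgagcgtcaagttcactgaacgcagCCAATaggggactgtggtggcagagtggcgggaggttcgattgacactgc
Counted from the start, the matches begin at -73 and -38 in Mre11a, at -99, -67 and -34 in Brip1 and at -50 in Rad54l.

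The RefSeq table of 300-base windows (250 bases before to 50 after the start) held 29 of the 40 members; Exo1, Fancd2, Nbn, Rad50, Rad51d, Rad54b, Rbbp8, Rmi2, Top3a, Wrn and Xrcc2 were the other 11. CCAAT, searched on both strands, was in 17 of the 29 (58.6%), against 37.9% of the windows of 27025 genes. It was also in 17 of 29 replication genes (58.6%) and 22 of 37 further recombination and Fanconi genes (59.5%). Of mitotic genes 16 of 18 had it (88.9%), and of end joining genes 4 of 12 (33.3%). A share above that of all genes was thus not particular to the members. E2F-type matches (TTTCCCGC, TTTGGCGC, TTTGCCGC or TTTCGCGC, both strands) were in 4 of 29 (13.8%, against 2.32% of all): Bard1, Brca2, Fancg and Rad51c. For 20 of the 29 the RefSeq start lay within 50 bases of the GENCODE gene start: CCAAT was in 14 of these 20 and an E2F-type match in 1, Brca2. The RefSeq starts of Bard1, Fancg and Rad51c lay 174, 205 and 448 bases further into the gene. The CHR-type letters TTTGAA, both strands, were in 2 of 29 (6.90%, against 18.1% of all), Bard1 and Eme1. The same letters stood in 13 of 18 mitotic genes, and E2F-type matches in 12 of 29 replication genes. No match overlapped another among the members. A match is a run of letters, not a shown binding site.

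Under CHK1 inhibition in 786-O, transcripts of the recombination and Fanconi genes were mostly lower. 13 of the 40 fell and 1, TOP3A, rose (limma, Benjamini-Hochberg adjusted p below 0.05 over all 29353 genes tested). Of all genes tested, 6.16% fell and 7.05% rose. The median change of the 40 was -0.41 (log2), against 0.08 over all genes, and 32 of 40 had a negative sign. Both shares depend on the filter: among the 12731 genes with a mean deposited value of at least 5, 20 members fell and 2 rose, where 25.2% of genes fell and 23.7% rose. The members called lower came from 7 of the 8 roles: 2 of 7 resection genes, 2 of 5 mediators, 2 of 5 genes of the XRCC2 and XRCC3 group, 1 of 3 annealing genes, 2 of 4 dissolution genes, 3 of 9 core genes and 1 of 3 effectors. None of the 4 resolution genes passed with limma, 2 of them at an unadjusted p below 0.05.

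**Figure D1:**
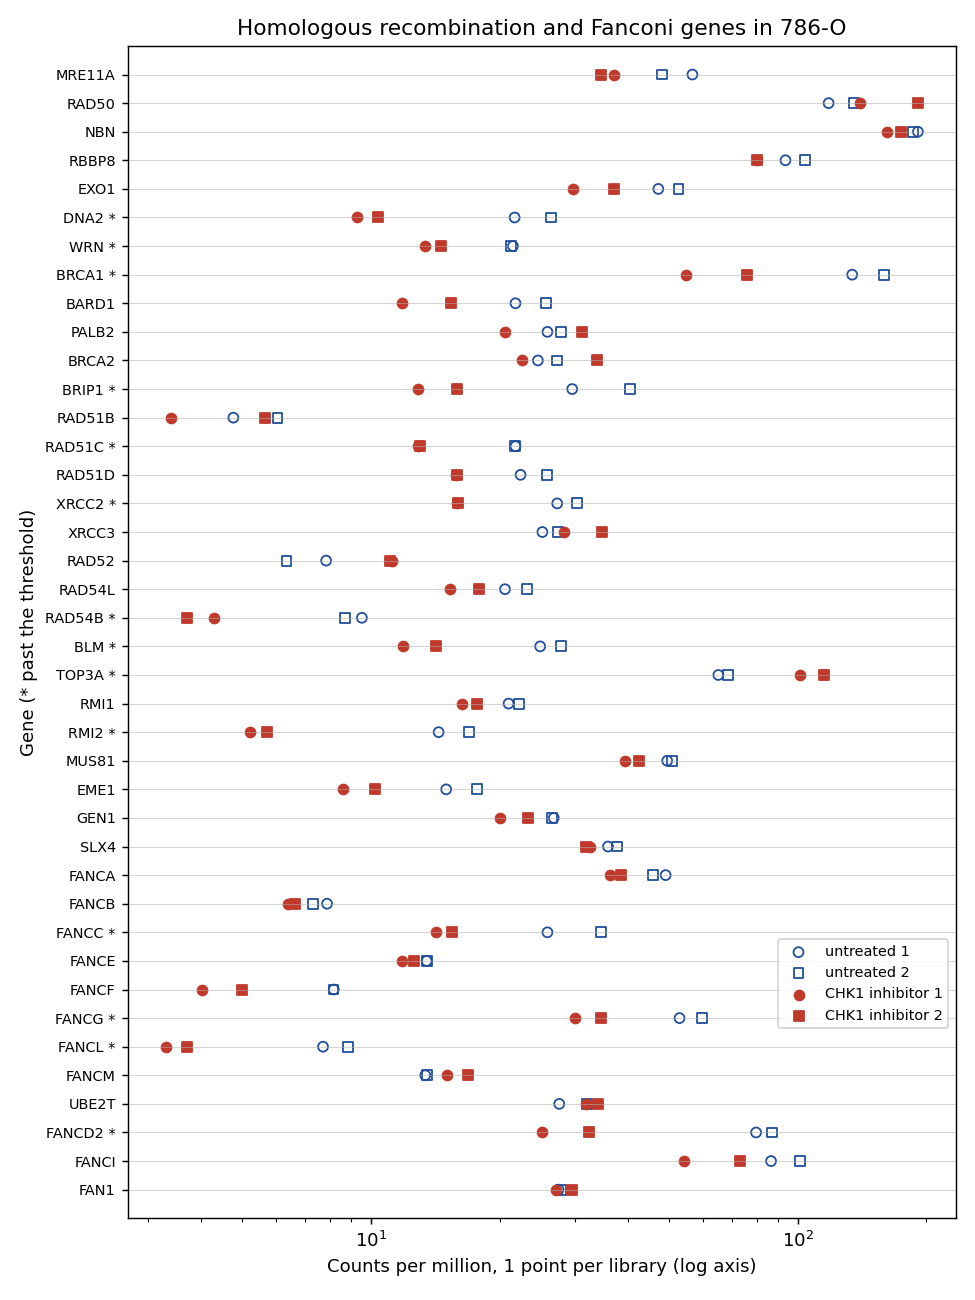
CPM (counts scaled to the library total, log x axis) of the 40 genes in the 4 libraries of 786-O, 1 point per library, with untreated libraries as open blue symbols and CHK1 inhibitor libraries as filled red symbols; circles are replicate 1 and squares replicate 2, and an asterisk marks an adjusted p below 0.05. FANCD2 lies at 79.8 and 86.9 untreated against 25.2 and 32.4 treated, whereas TOP3A lies to the right in the treated libraries.

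FANCD2, the protein that the Fanconi core ubiquitinates, showed the largest fall. It had 1911 and 2041 counts in the untreated libraries and 541 and 676 in the treated ones. Both treated libraries were below both untreated ones, at 28.8 ± 5.11 CPM (counts scaled to the library total; SD, n = 2) against 83.3 ± 5.03 (SD, n = 2). The difference was -1.47 ± 0.15 (log2 ± SE, limma adjusted p = 0.0254). FANCI, its partner in the pair, had 86.5 and 101 CPM untreated against 54.0 and 73.0 treated, a difference of -0.51 that did not pass (adjusted p = 0.161). FAN1, a nuclease recruited by the modified pair, differed by 0.09 (adjusted p = 0.486).

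In the Fanconi core, FANCL, the catalytic ubiquitin ligase subunit, fell from 185 and 208 counts to 71 and 77, with no overlap, a difference of -1.09 ± 0.13 (limma adjusted p = 0.0283). FANCC fell by 0.94 and FANCG by 0.74 (adjusted p = 0.0486 and 0.0381). FANCF, the adaptor of the complex, had 196 and 192 counts untreated against 86 and 104 treated, a difference of -0.76 just outside the threshold (adjusted p = 0.0568). UBE2T, the E2 enzyme that works with FANCL, and FANCM, the translocase that anchors the core on DNA, differed by 0.20 and 0.29 and did not pass.

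The dissolution complex, in which the BLM helicase and the topoisomerase TOP3A unlink double Holliday junctions with RMI1 and RMI2, did not move as a unit. RMI2, a small subunit, fell from 345 and 400 counts to 112 and 119 (15.7 ± 1.86 to 5.47 ± 0.35 CPM, SD, n = 2 each), a difference of -1.39 ± 0.13 (limma adjusted p = 0.0243). BLM fell from 597 and 654 counts to 256 and 296, a difference of -0.94 ± 0.13 (adjusted p = 0.0330). In both genes the treated libraries lay below the untreated ones. TOP3A rose from 1559 and 1612 counts to 2160 and 2395, or from 66.8 ± 2.50 to 108 ± 10.1 CPM (SD, n = 2 each), a difference of 0.74 ± 0.09 (adjusted p = 0.0304). RMI1 differed by -0.29 and did not pass (adjusted p = 0.129).

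Among the mediators, BRCA1, the ligase subunit that promotes resection, fell from 3217 and 3733 counts to 1175 and 1584, a difference of -1.12 ± 0.20 (limma adjusted p = 0.0491). BRIP1, the helicase that binds BRCA1, fell from 710 and 948 counts to 276 and 332, a difference of -1.19 ± 0.20 (adjusted p = 0.0449). BARD1, the constant partner of BRCA1, had 522 and 604 counts untreated against 253 and 321 treated and missed the threshold (-0.74, adjusted p = 0.0825). PALB2, the bridge to BRCA2, and BRCA2 itself overlapped between the groups, with differences of -0.03 and 0.15.

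XRCC2, a mediator of strand exchange, fell from 654 and 713 counts to 340 and 334, with no overlap, a difference of -0.78 ± 0.09 (limma adjusted p = 0.0266). RAD51C fell by 0.68 (adjusted p = 0.0286), whereas RAD51D, at -0.53, was at the threshold (adjusted p = 0.0509). RAD51B and XRCC3 did not pass, at -0.21 and 0.30. DNA2, a nuclease and helicase of long-range resection, fell from 519 and 621 counts to 199 and 217, a difference of -1.19 ± 0.14 (adjusted p = 0.0270). WRN, the helicase that works with it, fell by 0.55 (adjusted p = 0.0463), and EXO1, the exonuclease of the parallel route, differed by -0.52 and did not pass (adjusted p = 0.0919). The MRN complex, which opens the break, did not pass: MRE11A stood at -0.49, RAD50 at 0.43 and NBN at -0.11. RAD54B, a remodelling translocase, fell by 1.05 (adjusted p = 0.0313), while RAD52, the annealing protein, had 188 and 149 counts untreated against 241 and 231 treated, a difference of 0.68 that did not pass (adjusted p = 0.0722).

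These calls rest on 2 libraries a group. With so few, a lack of overlap does not set a member apart. Among the members only PALB2, BRCA2 and RAD51B overlapped, and FAN1 and FANCE, at 0.09 and -0.09, did not. The share over all genes was not counted. Over the 10 alternatives run, those that leave out 1 library included, the change of FANCD2 ran from -1.65 to -1.29, that of RMI2 from -1.51 to -1.27, of DNA2 from -1.31 to -1.07, of XRCC2 from -0.85 to -0.72 and of TOP3A from 0.64 to 0.83. Fits that leave out 1 library have 1 library in an arm, assumed to vary like the other arm, so their calls say little about stability. Without untreated replicate 1 or untreated replicate 2, 0 members and 0 of all genes passed with limma, with XRCC2 at an unadjusted p of 0.00761 and 0.00992. Without CHK1 inhibitor replicate 1, FANCD2 fell (-1.29, limma adjusted p = 0.0495) and TOP3A rose (0.83, adjusted p = 0.0439). Without CHK1 inhibitor replicate 2, FANCD2 alone fell (-1.65, adjusted p = 0.0329). In each of these last 2 fits 2.68% of all genes fell, and 10.7% and 13.7% rose. A fit that weights the recovered counts by their precision (voom, chosen after seeing the data) called 22 members lower and 2 higher, where 25.1% of 14307 genes fell and 19.8% rose.

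Other genes of these pathways and of DNA synthesis moved in the same libraries. Of 40 further recombination and Fanconi genes tested, 6 fell and 2 rose (median -0.13). SPIDR, a scaffold of BLM, fell by 1.19, ABRAXAS1, of the BRCA1-A complex, by 1.21, MMS22L, a fork recombination factor, by 0.97 and USP1, the enzyme that deubiquitinates FANCD2, by 0.75, whereas PSMC3IP, a cofactor of strand exchange, rose by 0.98. Of 14 end joining genes 2 fell, XRCC5 by 0.54 and XRCC6 by 0.44, the subunits of the Ku ring. Of 35 replication genes 18 fell and 1 rose (median -0.49), among them RFC4 by 1.25, LIG1 by 1.23 and CDC45, MCM6 and PCNA by 0.95 each. Of 20 mitotic genes 6 fell and 2 rose (median -0.14): KIF11 fell by 0.91, BUB1 by 0.84, CDK1 by 0.72 and TOP2A by 0.66, and AURKA rose by 0.82. Of 20 p53 targets 4 rose and 3 fell, with CDKN1A, the cyclin-dependent kinase inhibitor p21, higher by 2.26, AEN by 1.81 and SESN2 by 1.65. The share of cells in each cycle phase was not measured, and the part of a shift in phase in the changes of the 40 genes was not tested.

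In Renca tumours labelled WT, VE822 gave small changes, with more members lower than higher. 10 of the 40 fell and 2 rose (limma, adjusted p below 0.05 over 15916 genes). Of all genes tested 17.5% fell and 17.2% rose, and no test of the list was made. The members' count of falls does not stand above all genes in every fit. Without the libraries high in muscle, or without WT VE822 replicate 2 alone, the members' share was under that of all genes. The same held with a T cell or fibroblast covariate (values below). The median change was -0.08 (log2), against 0.01 over all genes. Changes are on the rlog scale, which shrinks those of low genes. In bulk tumour RNA, fewer cells of a type and less RNA per cell cannot be told apart.

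**Figure D2:**
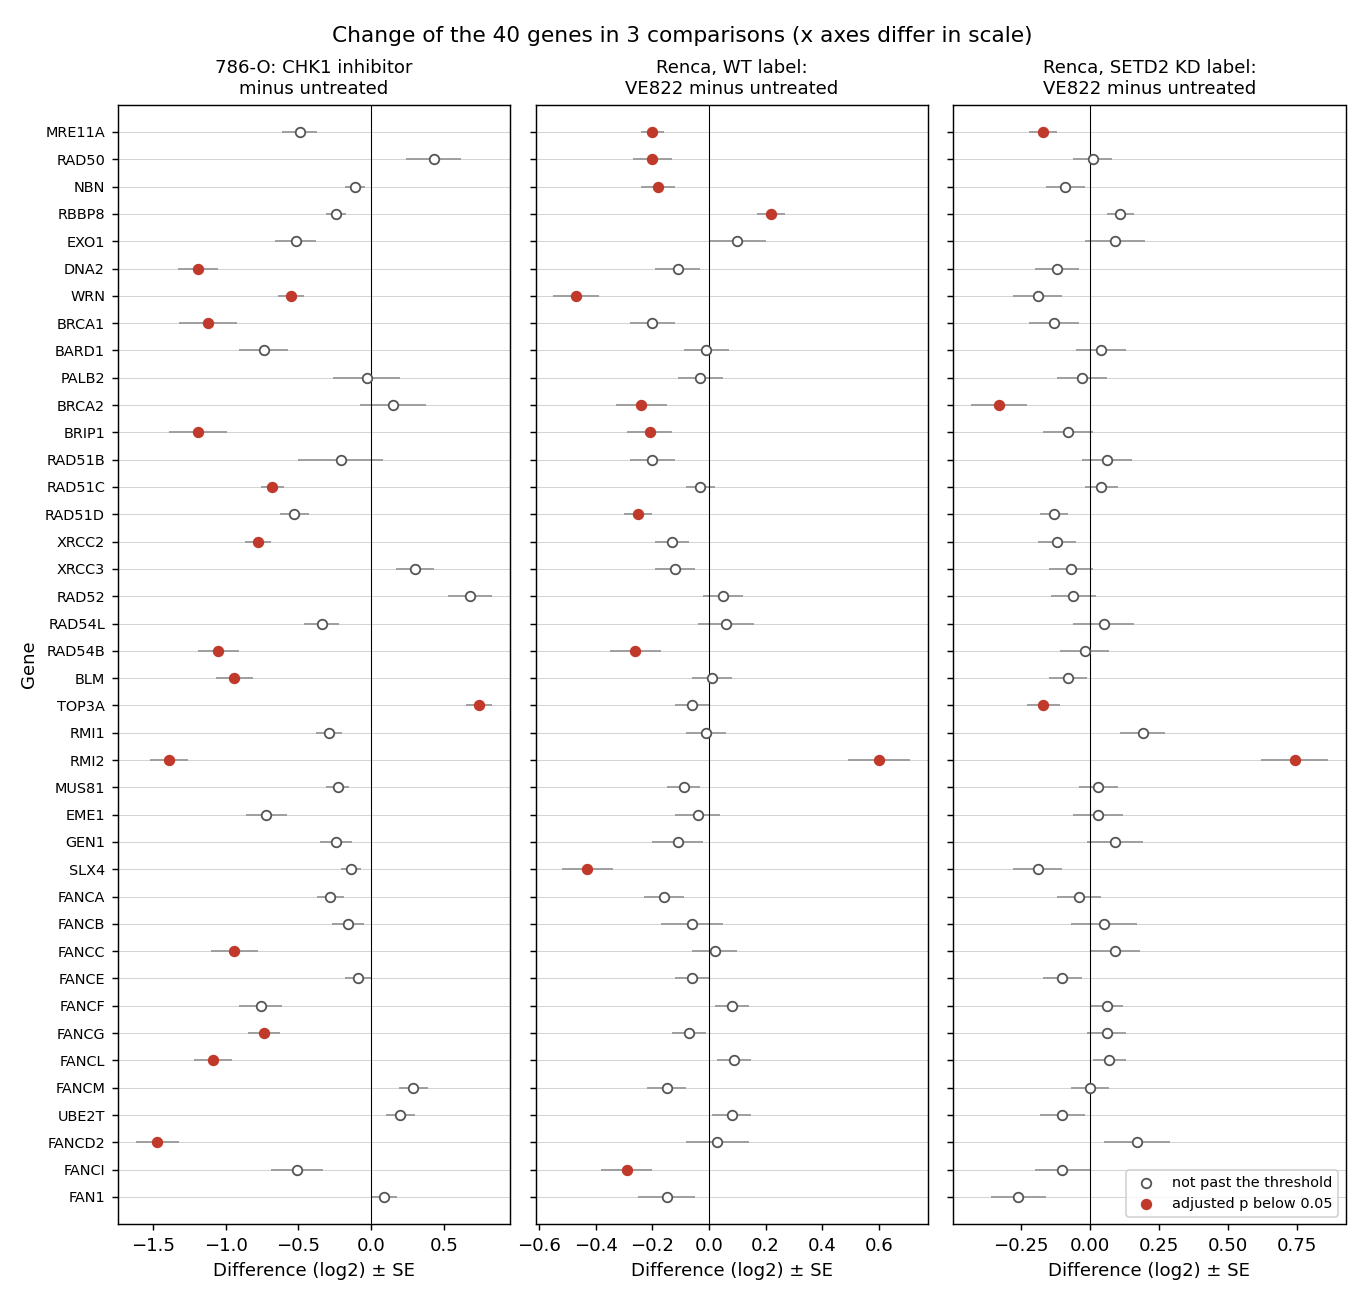
Difference ± SE (log2) of each of the 40 genes for CHK1 inhibitor minus untreated in 786-O and for VE822 minus untreated in Renca tumours labelled WT and SETD2 KD, with filled red points at an adjusted p below 0.05; the x axes differ in scale. RMI2 is at -1.39 in the left panel and at 0.60 and 0.74 in the other two.

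Rmi2 was the member with the largest change in tumours, and it rose. Its rlog ran from 6.92 to 7.27 (median 7.05) in libraries labelled WT untreated and from 7.35 to 7.80 (median 7.73) in WT VE822, without overlap, a difference of 0.60 ± 0.11 (log2 ± SE, limma adjusted p = 0.00017). In libraries labelled SETD2 KD it ran from 6.97 to 7.51 (median 7.17) untreated and was 7.70, 8.0, 8.33, 7.56 and 8.07 under VE822, again without overlap, a difference of 0.74 ± 0.12 (adjusted p = 1e-04). Every VE822 library was above every untreated library of its own label. Rmi2 lies on GRCm38 chromosome 16 from 10835059 to 10892966, plus strand, with 1 overlapping gene on the opposite strand. The sources used here do not state whether counting used strand, and reads from such partners cannot then be told apart.

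T cell genes were higher in the same tumours: 12 of 14 rose in the WT label and 13 of 14 in the SETD2 KD label, with Cd28 at 1.98 and 2.40 (log2). Their mean rlog ran from 4.71 to 5.28 in WT untreated, 5.21 to 6.35 in WT VE822, 4.78 to 5.09 in SETD2 KD untreated and 5.64 to 6.44 in SETD2 KD VE822, with no marker at 0 in any group mean. With the T cell mean as a covariate (chosen after seeing the data), Rmi2 differed by 0.49 in the WT label (limma adjusted p = 0.0659) and by 0.59 in the SETD2 KD label (adjusted p = 0.142), no longer past the threshold. With that covariate 2 members fell (Wrn and Rad51d) and 1 rose (Rbbp8) in the WT label, and 0 members passed in the other with limma, where 4 had an unadjusted p below 0.05. Of all genes 5.81% fell and 5.05% rose with it in the WT label, and 1.59% and 1.35% in the SETD2 KD label. The T cell mean nearly separates treated from untreated libraries, so its part and that of the treatment cannot be told apart here.

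The members that fell in the WT label were led by Wrn, the helicase of resection and fork restart, and Slx4, the scaffold that holds the junction-cutting nucleases. Wrn ran from 9.28 to 9.52 rlog (median 9.38) untreated and from 8.57 to 9.20 (median 8.92) under VE822, without overlap, a difference of -0.47 ± 0.08 (limma adjusted p = 0.000112). Slx4 ran from 11.24 to 11.62 (median 11.33) and from 10.52 to 11.16 (median 11.01), also without overlap, a difference of -0.43 ± 0.09 (adjusted p = 0.000415). WT VE822 replicate 2 was the lowest library for both genes. Neither gene has an overlapping gene in the annotation. Genes of chromosome 8, where Wrn lies, had a median shift of -0.12, and those of chromosome 16, with Slx4, of -0.07. With chromosome medians removed, Wrn stood at -0.34 and Slx4 at -0.37, both past the threshold.

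Rad51d, of the same group as Xrcc2, ran from 9.34 to 9.59 rlog (median 9.43) untreated and from 9.07 to 9.32 (median 9.19) under VE822, without overlap, a difference of -0.25 ± 0.05 (limma adjusted p = 0.000403). All 3 subunits of the MRN complex fell in the WT label. Mre11a, the nuclease, fell by 0.20 ± 0.04 (adjusted p = 0.00162), from a range of 9.71 to 9.84 to one of 9.48 to 9.69. Rad50, the ATPase, fell by 0.20 (adjusted p = 0.0268) and Nbn, the signalling subunit, by 0.18 (adjusted p = 0.0276), with overlapping groups. Rbbp8 (CtIP), which activates MRE11A, rose by 0.22 ± 0.05 (adjusted p = 0.00123), from 9.81 to 10.08 untreated to 10.06 to 10.26 treated. The nuclease and its activator thus differed in sign.

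Of the remaining members called lower, Fanci ran from 8.28 to 8.60 rlog (median 8.45) untreated and from 7.97 to 8.29 (median 8.23) under VE822, a difference of -0.29 ± 0.09 (limma adjusted p = 0.0143). Rad54b ran from 7.44 to 7.74 (median 7.65) and from 7.02 to 7.51 (median 7.40), a difference of -0.26 ± 0.09 (adjusted p = 0.0202). The groups overlapped in both genes. Brca2 fell by 0.24 and Brip1 by 0.21 (adjusted p = 0.0457 and 0.0421). Fanci overlaps Polg, Mre11a overlaps Ankrd49 and Rad54b overlaps Fsbp in the annotation. None of the 9 Fanconi core genes passed with limma, 2 of them at an unadjusted p below 0.05.

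Muscle RNA differed between these libraries. The skeletal muscle list mean ran from 4.53 to 9.05 in WT VE822 and from 4.34 to 6.30 in WT untreated, and 4 libraries (WT untreated 4, WT VE822 1, 2 and 4) lay more than 1 above the median of the 24 libraries. Without them 4 members fell, Wrn (-0.37), Slx4 (-0.33), Rad51d (-0.22) and Mre11a (-0.19), and Rmi2 (0.66) and Rbbp8 (0.19) rose, where 11.2% of all genes fell and 10.3% rose. Without WT VE822 replicate 2 alone, 5 members fell, these 4 and Fanci, where 15.7% of all genes fell. These 5, with Rmi2 and Rbbp8, passed in all 13 fits that left out 1 library. Brca2 passed in 4 of the 13, Brip1 in 6, and Nbn and Rad50 in 10 each. Fibroblast genes were also higher (5 of 10 rose, median 1.05), and with their mean as a covariate (chosen after seeing the data) the same 4 and Fanci fell, where 14.6% of all genes fell.

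In libraries labelled SETD2 KD, VE822 changed 4 members: Rmi2 rose, and Brca2, Mre11a and Top3a fell. Of all genes tested 10.6% rose and 11.6% fell, against 1 and 3 of 40 members, and the median change was -0.03. Brca2, the central mediator, ran from 8.89 to 9.38 rlog (median 9.17) untreated and was 8.89, 8.54, 9.03, 8.78 and 8.84 under VE822, an overlapping difference of -0.33 ± 0.10 (limma adjusted p = 0.0200). Mre11a ran from 9.72 to 9.92 (median 9.80) untreated and was 9.58, 9.51, 9.76, 9.68 and 9.64 under VE822, a difference of -0.17 ± 0.05 (adjusted p = 0.0152). Top3a ran from 8.48 to 8.67 (median 8.55) untreated and was 8.35, 8.29, 8.46, 8.34 and 8.49 under VE822, a difference of -0.17 ± 0.06 (adjusted p = 0.0463). These 3 falls depend on single libraries. Without SETD2 KD VE822 replicate 2, 0 members fell, where 9.74% of all genes fell. Without SETD2 KD untreated replicate 4 only Mre11a did, where 9.88% of all genes fell. Without SETD2 KD VE822 replicate 4 the count was 5 of 40 (these genes without Top3a, and Dna2, Rad51d and Fan1). In that fit 13.9% of all genes fell, so the higher count is near the share of all genes. Top3a passed in 3 of the 11 fits that left out 1 library, Brca2 in 9 and Mre11a in 10. Rmi2 rose in all 11, joined by Rmi1 without SETD2 KD untreated replicate 5 or VE822 replicate 1 and by Rbbp8 without VE822 replicate 4.

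**Figure D3:**
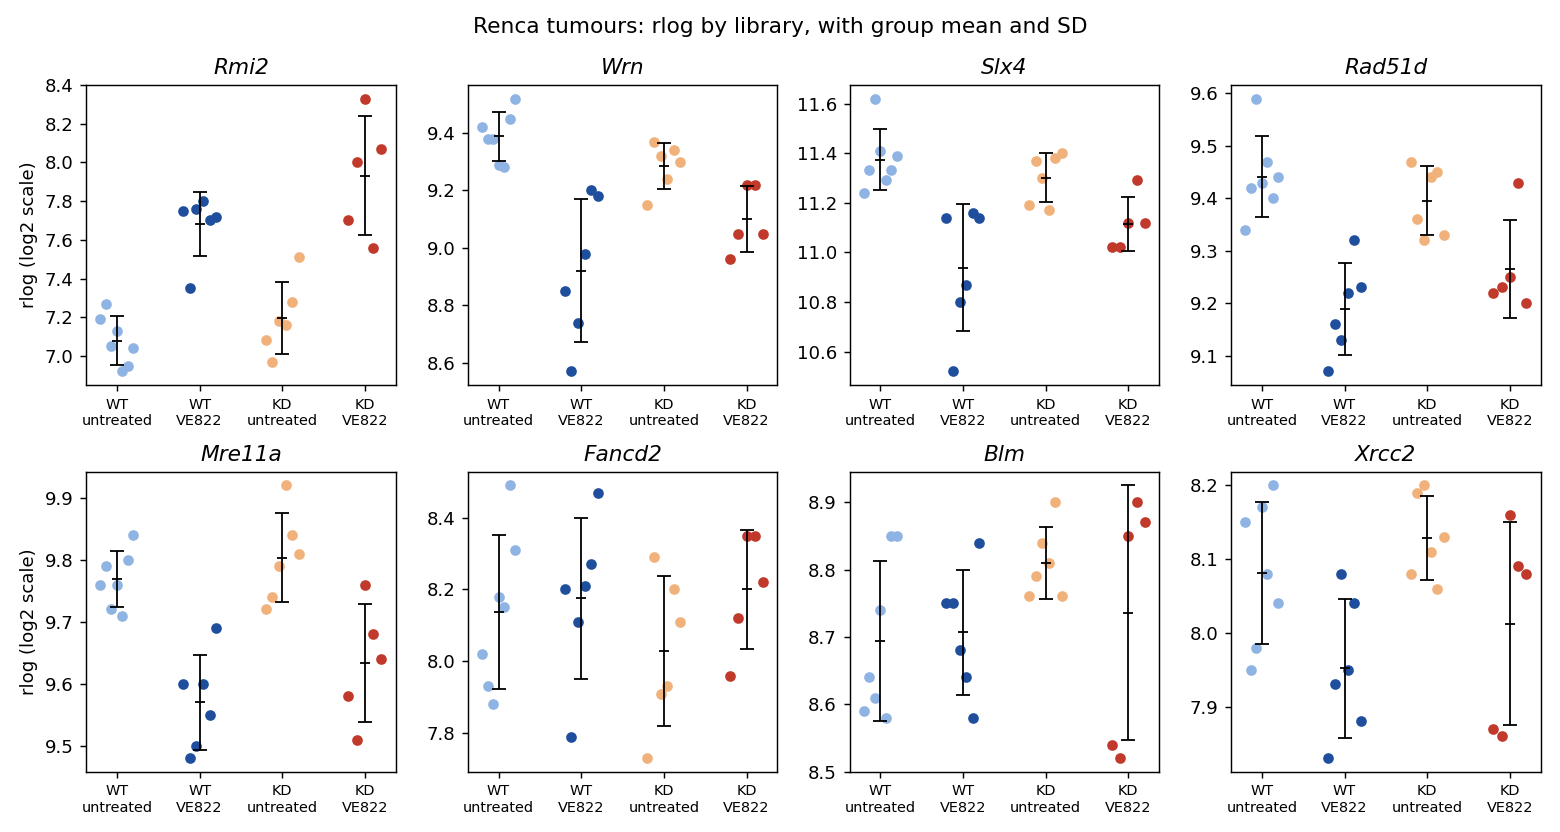
Deposited rlog (log2 scale) of 8 genes in each of the 24 Renca libraries, 1 point per library, with the group mean and SD as black bars. Rmi2 is higher in both VE822 groups, Wrn, Slx4, Rad51d and Mre11a are lower in WT VE822, and the groups overlap for Fancd2, Blm and Xrcc2.

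The 3 marker genes were not called in tumours, although Xrcc2 passed in the WT label after quantile normalisation (-0.19, limma adjusted p = 0.0243). Fancd2 ran from 7.88 to 8.49 rlog in WT untreated and from 7.79 to 8.47 in WT VE822 (0.03 ± 0.11, limma adjusted p = 0.841), and in the SETD2 KD label from 7.73 to 8.29 untreated against 7.96, 8.12, 8.35, 8.35 and 8.22 under VE822 (0.17 ± 0.12, adjusted p = 0.337). Blm ran from 8.58 to 8.85 and from 8.58 to 8.84 in the WT label (0.01 ± 0.07), and in the SETD2 KD label from 8.76 to 8.90 against 8.54, 8.52, 8.85, 8.90 and 8.87 (-0.08 ± 0.07). Xrcc2 ran from 7.95 to 8.20 and from 7.83 to 8.08 in the WT label (-0.13 ± 0.06, adjusted p = 0.107), and in the SETD2 KD label from 8.06 to 8.20 against 7.87, 7.86, 8.16, 8.09 and 8.08 (-0.12 ± 0.07). The groups overlapped in all 6 comparisons. Fancd2 shares its locus with Fancd2os on the opposite strand.

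Between the genotype labels the 40 genes did not differ past the threshold. Without treatment 0 members and 0 of all genes (0%) passed with limma, and at an unadjusted p below 0.05 there were 512 genes and 0 members; the members' differences ran from -0.13 to 0.12. Under VE822 0 members passed, against 0.0126% of all genes (2 genes), and 7 members had an unadjusted p below 0.05 among 2031 genes, all 7 higher in the SETD2 KD label (Nbn, Gen1, Fancm, Rad50, Xrcc3, Rmi2 and Mus81). The interaction of label and treatment called 0 members and 0% of genes, with 3 members (Wrn at 0.28, Rad50 at 0.21 and Rad51b at 0.25) among 1452 genes at an unadjusted p below 0.05. That more members were called in the WT label than in the SETD2 KD label is therefore not shown to be a difference between the labels.

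Side by side, most members that fell in 786-O were not called in tumours. Of these 13, 3 also fell in the WT label (WRN, BRIP1 and RAD54B), 1 rose there (RMI2), and 9 were called in neither Renca comparison. Of all 40 members 10 fell in the WT label and 13 were called in either Renca comparison, so these overlaps are near the members' own shares. Over the 40, changes in 786-O correlated at -0.204 (Pearson r) with the WT label and -0.392 with the SETD2 KD label. Between the 2 labels r was 0.776. These r are descriptions without a test. In the SETD2 KD label none of the 13 fell and RMI2 rose. MRE11A and BRCA2 fell and RMI2 rose in both labels. TOP3A rose in 786-O and fell in the SETD2 KD label, so both RMI2 and TOP3A, subunits of one complex, had opposite signs in the 2 systems. The TOP3A fall is the weaker case: it was lost in 12 of 21 alternatives, and TOP3A was not called in the WT label (-0.06). 18 members were called in none of the 3 comparisons. The matching shares over all genes, for this count and for calls in both labels, were not counted. The systems differ in species, compound, target, dose and time, and the difference between them was not tested.

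Other lists of repair and cell cycle genes also had members called in tumours. In the WT label 5 of 40 further recombination and Fanconi genes rose and 5 fell, among them Rfwd3, a Fanconi ubiquitin ligase, which fell by 0.34, Rad51ap1, which rose by 0.32, Zswim7, and Faap100, of the Fanconi core, which rose by 0.25 and 0.22, and Spidr, which fell by 0.24. In the SETD2 KD label 2 rose and 4 fell: Eme2, a partner of Mus81, rose by 0.31 and Babam2, of the BRCA1-A complex, by 0.15, and Spidr, Cenps and Rfwd3 fell by 0.28, 0.27 and 0.23. Of 15 end joining genes 5 fell and 1 rose in the WT label and 2 fell in the other; Prkdc, the kinase of end joining, fell by 0.52, Lig3 by 0.32, Lig4 by 0.20 and Xrcc6 by 0.16 in the WT label, Xrcc6 by 0.13 in the SETD2 KD label, and Xrcc5 by 0.21 and 0.23 in the 2 labels. Of 35 replication genes 6 fell and 3 rose in the WT label and 13 fell and 1 rose in the SETD2 KD label, with Mcm4 lower by 0.41 and 0.35, Prim1 by 0.38 and 0.36, and Cdc45 higher by 0.45 and 0.38; in the WT label Pola2 fell by 0.23 and Mcm2 rose by 0.22, and in the other Mcm5 fell by 0.33. Of 20 mitotic genes 5 rose in the WT label, Birc5 (0.33), Cdca8 (0.28), Ccnb1 (0.21), Aurka (0.19) and Aurkb (0.15), and 1, Cdk1, fell in the SETD2 KD label (-0.20). Of 20 p53 targets 4 rose and 6 fell in the WT label, and 4 fell in the SETD2 KD label.

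From library to library within a group, part of the 40 genes followed the proliferation genes. After removal of group means over 24 libraries, Exo1 (Pearson r = 0.73, Spearman rho = 0.68) and Rad54l (r = 0.72, rho = 0.73) followed the mean of the 35 replication genes, with permutation p of 0.00023 and 0.00038 (100000 resamples within groups, two-sided) and adjusted p of 0.0076 each over the 40 members. The r without the 2 libraries farthest from the median was 0.66 and 0.67. Against the mean of 20 mitotic genes 19 members passed with a positive r (17 by rho), led by Rad54l (r = 0.84, rho = 0.85), Eme1 (0.79 and 0.88), Exo1 (0.77 and 0.79) and Gen1 (0.74 and 0.72), each at the smallest permutation p that these resamples allow (1e-05, adjusted 5.7e-05). Their r without the 2 farthest libraries was 0.79, 0.78, 0.77 and 0.72.

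Bard1 and Fancd2 (r = 0.73 each), Brip1 (0.72), Brca1 (0.71) and Fanci (0.70) were next in step with the mitotic genes, and Blm and Xrcc2 passed at 0.54 and 0.53 (permutation, adjusted p = 0.018 each). Fance was the 1 member with a negative r past the threshold (-0.51, permutation adjusted p = 0.040). Of the members called with VE822 in either label, Brip1, Fanci, Rad54b (0.59), Wrn (0.54) and Rad50 (0.36, not by rho) passed. Rmi2 (0.21), Slx4 (0.34), Mre11a (0.37), Rad51d (-0.13), Nbn (0.14), Rbbp8 (0.23), Brca2 (-0.04) and Top3a (0.06) did not. The median r over the 40 was 0.28 with replication genes and 0.39 with mitotic genes, against -0.01 for each over all genes tested outside the list. An r above 0.5, a value chosen after seeing the data, was found in 7 members (17.5%) with replication genes, against 3.68% of all genes, and in 17 (42.5%) with mitotic genes, against 4.37%. These shares are descriptions over genes measured in the same libraries. With the replication mean as a covariate the WT label differences of Rmi2, Wrn and Slx4 were 0.64, -0.44 and -0.43. With it, Brip1 in the WT label and Mre11a and Top3a in the SETD2 KD label no longer passed.

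**Figure D4:**
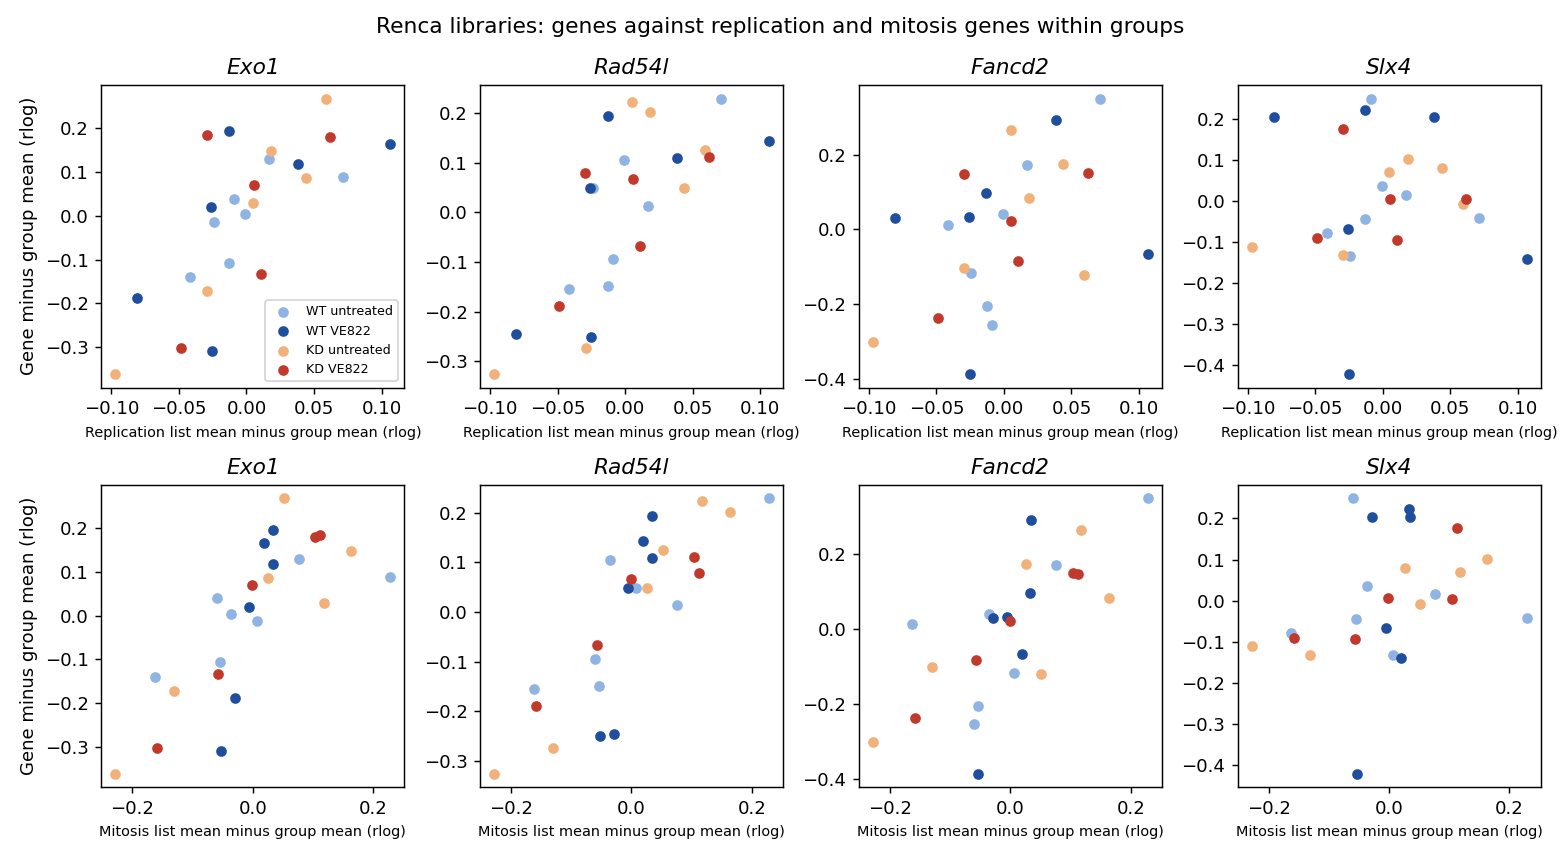
Exo1, Rad54l, Fancd2 and Slx4 (y axis, rlog minus group mean) against the mean of the replication genes (upper row) and of the mitotic genes (lower row), also minus group means, over 24 Renca libraries coloured by group. Rad54l follows the mitotic mean most closely (r = 0.84), and Slx4 does not pass against either mean.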

How the data were processed

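RNA-seq libraries were grouped by their labels alone (4 of 786-O, 24 of Renca). The authors deposited both tables on the log2 scale: variance-stabilised values for human genes, named so in the file header, and rlog values, as the deposited table is named, for mouse Ensembl genes. Per the submitters' processing notes, TopHat, HTSeq, FastQC and DESeq2 were used with the builds hg38 and GRCm38; versions, annotation and strandedness: not given in the sources used here. Human counts were recovered from the steps of the transform (100% whole within 0.1). Mouse symbols came from GENCODE vM21 (98.16% of rows).

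limma 3.58.1 (R 4.3.3, empirical Bayes with trend) was the main test, on the deposited log2 values, with Benjamini-Hochberg adjustment over all genes and a threshold of 0.05. Human genes with 1 value throughout were dropped, and mouse genes needed a mean rlog of at least 3 in 1 model of 4 group means. For CPM the recovered counts were divided by their total. Self-tests used simulated data. The 40 members and the lists (further recombination and Fanconi, end joining, replication, mitosis, p53 targets, renal carcinoma cell, skeletal muscle, T cell, macrophage, fibroblast, endothelium) were chosen with earlier results of these data known. Values by library are given for FANCD2, BLM, XRCC2 and the 6 largest called changes per comparison; of the further recombination, end joining, replication and mitosis lists the 5 largest called changes are named, and up to 3 of the others; 1 gene that the rule would name is not reported here. Other genes are named as members. Alternatives were other filters, scalings, covariates, sample weights and libraries left out in turn. Macrophage genes called lower were 3 of 10 in each label, and 1, Mertk, rose in the WT label (0.35); endothelial genes called higher were 1 of 8 in each. Renal carcinoma genes called lower numbered 1 of 8 in 786-O and 3 of 8 in each label, with Krt18 down by 0.84 and 0.91 and Epcam up by 1.31 and 1.00.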

Additional observations from a re-analysis of the deposited data

Results flagged for a closer look

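Within groups of 5 to 7 libraries, 160 sets of a gene and a group were checked. In 9 of them 1 library had a gap to the next that was large against the group's range. The limit was Dixon's critical value, which chance passes in about 1 in 20 groups. In SETD2 KD untreated replicate 1, Brca1 (9.72 rlog, next 10.02) and Brip1 (8.85, next 9.04) were low. In SETD2 KD VE822 replicate 4, Palb2 (8.0, next 7.5), Rad51d (9.43, next 9.25) and Fan1 (7.32, next 6.87) were high, and in SETD2 KD VE822 replicate 2 Fancf was low (7.18, next 7.24). In WT VE822 replicate 2, Rmi2 was low (7.35, next 7.70) and Fance high (9.70, next 9.48), and in WT VE822 replicate 3 Fan1 was low (6.59, next 6.97). Without SETD2 KD VE822 replicate 4, Fan1 and Rad51d joined the members called lower in that label, where 13.9% of all genes fell. Without WT VE822 replicate 2, Rmi2 rose by 0.67 and stayed past the threshold.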

How the results depend on the processing

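No called member changed direction under any alternative run. In 786-O 13 members fell and 1 rose. With the replicate block 20 fell and 2 rose, where 9.71% of all genes fell and 9.31% rose. With a mean value of at least 5 the members were 20 and 2 (25.2% and 23.7% of genes), and with voom 22 and 2 (25.1% and 19.8%). Without a mean-variance trend 0 members and 0 of all genes passed. With quantile normalisation 2 members rose (7.76% of all genes). The replicate number pairs only 2 libraries a group. Deviations of same-numbered libraries correlated at 0.158 over all genes and 0.511 over genes with a mean of at least 5, so the pairing is a hint and the unpaired fit is reported. In the WT label (10 fallen, 2 risen), 4 fell without muscle-high libraries (11.2% of all genes fell) and 5 with the fibroblast covariate (14.6%). With the T cell covariate 2 fell and 1 rose (5.81% and 5.05%). With quantile normalisation 14 fell (20.1%), with a mean rlog of at least 5 10 did (20.8%). With 1 library left out 5 to 11 fell (15.5% to 17.8%). In the SETD2 KD label 3 fell and 1 rose. Library weights gave 8 and 2 (16.6% of all genes fell and 16% rose), and the T cell covariate 0 and 0 (1.59% and 1.35%). The fibroblast covariate and the fit of only the groups compared gave 1 fallen each (9.96% and 9.48%). With chromosome medians removed 2 rose (12.9%), and with the replication covariate 3 (8.16%). Leaving out 1 library gave 0 to 5 fallen (9.1% to 13.9%) and 1 to 2 risen (8.58% to 14%). Counts for the label and the interaction stayed at 0 in all alternatives run. In the relation to other genes, 2 members passed with the replication mean and 19 with the mitosis mean. Covariates and the voom fit were chosen after seeing the data, except the replication covariate. The cause of these shifts was not tested. Depth limits the human genes with few counts, and the mouse depth is unknown.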
